A study of Mus musculus with 12 samples.

Results

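Semaphorins, plexins, neuropilins, Slits, Robos, netrins, Unc5 receptors, ephrins and Eph receptors were followed in mouse NIH3T3 cells, an established fibroblast line. Members were the genes whose symbol in the array's annotation belonged to these families, which gave 66 of the 18193 genes tested. They were 7 class 3 semaphorins, 13 semaphorins of classes 4 to 7, 2 neuropilins, 9 plexins, 3 Slits, 4 Robos, 4 netrins, 4 Unc5 receptors, 5 ephrins of class A and 3 of class B, and 8 Eph receptors of class A and 4 of class B. A gene with several probe sets was represented by the one of highest mean level, a choice that used no group.

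RNA was hybridised to 12 Affymetrix arrays, in 6 groups of 2. Tead2-EnR cells, which carried the DNA-binding factor Tead2 joined to the Engrailed repression domain, were taken at low density, 30% of their confluency. Yap cells, which carried the Tead coactivator Yap, were taken while proliferating at a density slightly above that at which normal cells are confluent, called high density here. Tead2-VP16 cells, which carried Tead2 joined to a viral activation domain, were taken at complete confluency and, while proliferating, at high density. Control cells, infected with the control virus, were taken at complete confluency (confluent control) and at 30% confluency (low-density control). The labels say neither whether the cells were pools or clones nor whether both arrays of a pair were from separate dishes, so the p-values measure only the spread between these arrays, which may be technical.

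Guidance cues are secreted or membrane-bound proteins first known for steering growing axons, and fibroblasts use many of them in adhesion, repulsion and migration. Class 3 semaphorins are secreted and mostly bind neuropilins, which signal through plexins, while most other semaphorins bind plexins directly. Slits bind Robo receptors, netrins bind Dcc and Unc5 receptors, and ephrins on one cell bind Eph receptor tyrosine kinases on its neighbour, so that Eph signalling depends on cell contact.

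Values are log2 intensities unless another scale is named, and a difference is the log2 fold change of the first group over the second, with the SE of the fit. A gene counted as called when its limma p, adjusted over all 18193 genes by Benjamini-Hochberg, was below 0.05. Levels of different probe sets are not compared, but 6.87, the mean level of the median gene, was used to mark dim probe sets. Of the 66 members, 25 had a mean above it. These were 4 of 7 class 3 semaphorins, 3 of 13 other semaphorins, both neuropilins, 6 of 9 plexins, 1 of 3 Slits, 1 of 4 Unc5 receptors, 4 of 5 class A and 1 of 3 class B ephrins, and 1 of 8 class A and 2 of 4 class B Eph receptors. None of the 4 Robos and none of the 4 netrins did, and the highest single array value was 5.92 for a Robo and 6.64 for a netrin. Changes of dim probe sets may be understated by background signal, which was not tested. In RNA from whole cultures, fewer cells of a type and less RNA per cell cannot be told apart.

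**Figure D1:**
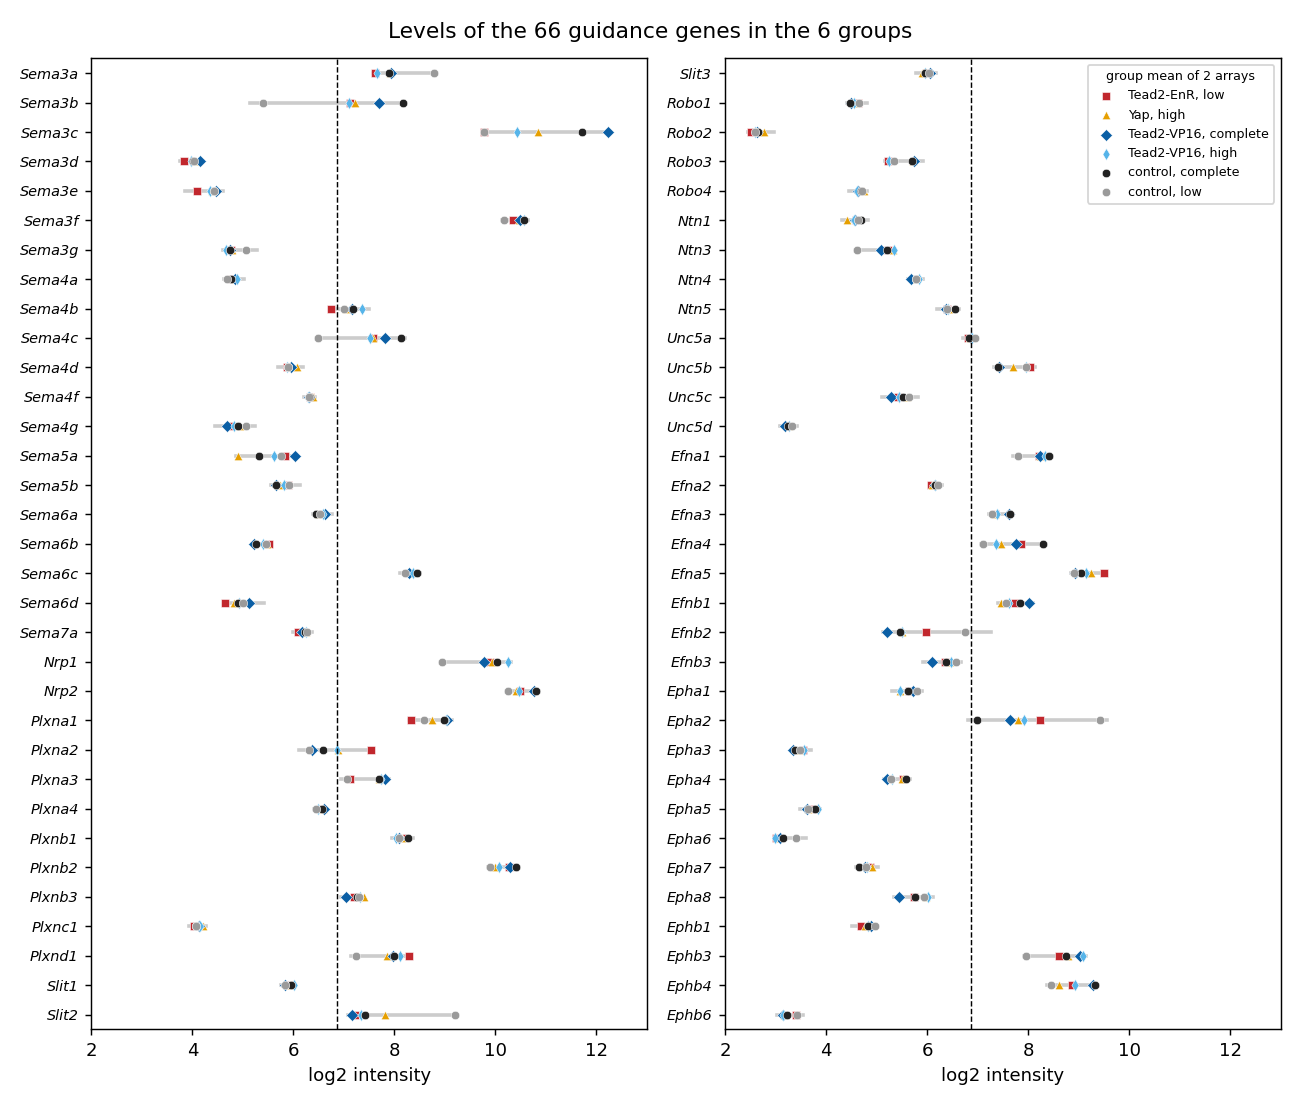
Log2 intensity (x axis) of each of the 66 genes (y axis), with the mean of 2 arrays for each of the 6 groups as a symbol and the range over all 12 arrays as a grey bar. The dashed line is the mean level of the median gene (6.87), which 25 of the 66 genes exceeded on average, and the bars of Sema3b, Sema3c, Epha2 and Slit2 are wide.

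Across genes, the arrays within a group had r between 0.9976 and 0.9986. All 12 fibroblast markers exceeded 6.87 in every group. The log2 of their mean intensity was 13.31 and 13.30 in Tead2-EnR cells, between 13.46 and 13.70 in Yap, Tead2-VP16 and confluent control cells, and 12.93 and 12.95 in low-density control cells. Of 10 markers each of neurons and endothelium, 1 exceeded 6.87 in every group, with the same measure between 5.04 and 5.37 and between 5.26 and 5.69. Macrophage markers, 3 of 10 above 6.87, had a log2 mean intensity of 7.84 and 7.80 in Tead2-EnR cells and of 6.44 to 6.79 on the other arrays. Of the 10 macrophage markers, 2 were called higher in Tead2-EnR against low-density control, Lyz2 (2.74) and Cd14 (0.61). Cd68 was called lower (-0.57), and the median of the 10 was 0.02. Epithelial markers, 2 of 10 above 6.87, had a log2 mean intensity of 6.85 to 7.96 in the other groups and of 8.19 and 8.31 in low-density control cells. They did not move as a set. In confluent against low-density control cells Epcam was called higher (1.25) and Krt14 (-1.21) and Krt8 (-0.22) lower, with a median of -0.05 over the 10. The transferrin receptor control probes differed between the 3′ and 5′ end by 1.12 ± 0.02 in Tead2-EnR cells, 1.31 ± 0.07 in Yap cells, 1.501 ± 0.06 and 1.23 ± 0.00142 in Tead2-VP16 cells at complete confluency and at high density, 1.30 ± 0.19 in confluent control cells and 0.98 ± 0.05 in low-density control cells (SD, n = 2). The part of these measures in the results was not tested. Tead2 measured 9.84 and 9.82 in Tead2-EnR cells against 9.63 and 9.62 in low-density control cells, and 9.76 and 9.76 in completely confluent and 9.41 and 9.23 in high-density Tead2-VP16 cells against 9.87 and 9.90 in confluent control cells. Yap1 measured 9.62 and 9.69 in Yap cells against 9.95 and 9.98 in confluent control cells. Which part of the transcripts these probe sets cover was not examined, so they do not check the labels.

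In confluent against low-density control cells, the comparison called density below, 20 of the 66 guidance genes were higher and 7 lower, against 26.1% and 22.8% of all genes. In Tead2-EnR against control cells at low density, 13 were higher and 6 lower, against 20.3% and 18.1% of all genes. Here and below, all genes were not matched in level to the 66 members, of which 25 had a mean above 6.87. Their percentages are therefore not a like reference for the members. Changes of at least 2-fold were called for 7 members with Tead2-EnR (3.3% of all genes) and for 8 with density (11%). The members' median was -0.00226 with density and -0.00484 with Tead2-EnR, beside -0.0114 and -0.0109 for all genes. The array medians shifted by 0.13 and 0.12 in these comparisons, and with arrays centred on them the members split into 16 higher and 14 lower with density (20.7% and 34.9% of all genes) and 12 higher and 16 lower with Tead2-EnR (14.7% and 31.1%). No called member changed sign in any of the 10 comparisons when centred.

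In Tead2-VP16 against control cells at complete confluency, 4 members were higher and 4 lower (5.06% and 4.92% of all genes), and 0 reached 2-fold by limma (0.242%), the largest size being 0.72. Those 8 calls became 4 and 3 without the first and the second confluent control array and 5 without either Tead2-VP16 array, and with centred arrays 4 were higher and 1 lower (7.6% and 3.47% of all genes). In Yap against confluent control cells, 3 were higher and 11 lower (11.7% and 14.5% of all genes), 0 of them at least 2-fold (1.1%). In high-density Tead2-VP16 against confluent control cells, 4 were higher and 10 lower (13.2% and 13.7%), 2 of them at least 2-fold (1.2%). Yap cells and high-density Tead2-VP16 cells had no control at their own density, so construct and density cannot be told apart in these comparisons. Against low-density control, Yap cells had 15 members higher and 6 lower (22.2% and 20.2% of all genes), 6 of them at least 2-fold (6.62%), and 12 higher and 12 lower with centred arrays (18.3% and 27.5% of all genes). High-density Tead2-VP16 cells had 16 higher and 6 lower against low-density control (23.4% and 19.5%), 8 of them at least 2-fold (7.18%), and 13 and 9 with centred arrays (19% and 26.6%). Comparisons that share a control share its arrays, so their values are given side by side only.

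Yap against Tead2-VP16 cells, both at high density, gave 2 higher and 3 lower members (0.934% and 1.08% of all genes), 0 of them at least 2-fold by limma (0.044%). Without the first or the second Yap array that count was 0 by limma (14 and 10 at an unadjusted p below 0.05), and without the first or the second Tead2-VP16 array it was 1 and 3. In Tead2-VP16 cells, complete confluency against high density gave 11 higher and 7 lower (12.1% and 12.4% of all genes), and Sema3c alone reached 2-fold (1 member, 0.594% of all genes). Of the 66 members, 36 were called in at least 1 of the 10 comparisons, as were 63.7% of all genes.

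**Figure D2:**
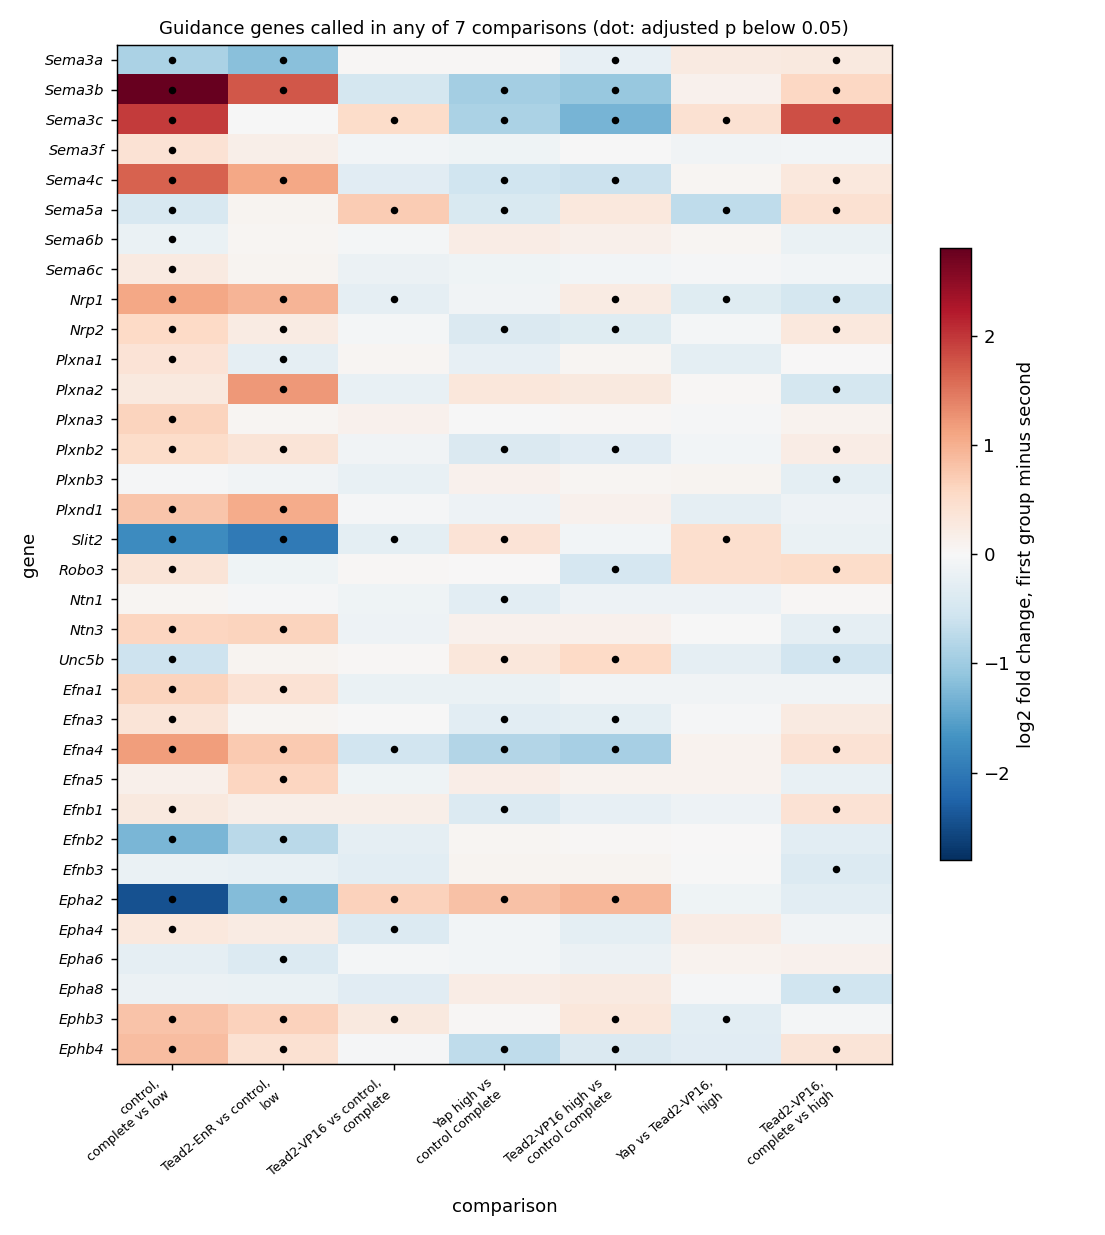
Log2 fold change (colour, first group over second) of the 34 guidance genes (y axis) called in at least 1 of the 7 comparisons on the x axis, with a black dot at an adjusted p below 0.05. Sema3b, Sema3c, Sema4c, Nrp1 and Efna4 are red and Epha2, Slit2 and Efnb2 blue in the density column, while Sema3c is near white in the Tead2-EnR column.

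Sema3b is a secreted semaphorin whose human gene is known as a candidate tumour suppressor. On the probe set chosen for each gene, it was the member that rose most with density. It measured 7.02 and 7.23 in Tead2-EnR cells, 7.28 and 7.18 in Yap cells, 7.83 and 7.55 in completely confluent Tead2-VP16 cells, 7.08 and 7.13 in high-density Tead2-VP16 cells, 8.14 and 8.21 in confluent control cells and 5.63 and 5.15 in low-density control cells. Low-density control arrays were the lowest and confluent control arrays the highest, and neither overlapped with any other group. Sema3b rose 6.89-fold in confluent against low-density control cells (2.79 ± 0.15, adjusted p = 1.31e-07) and 3.34-fold with Tead2-EnR at low density (1.74 ± 0.15, adjusted p = 1.05e-05). Against confluent control it was lower in Yap cells (-0.95 ± 0.15, adjusted p = 0.00114) and in high-density Tead2-VP16 cells (-1.07 ± 0.15, adjusted p = 0.000527). At complete confluency the Tead2-VP16 difference was -0.49 ± 0.15 and not called. Both other Sema3b probe sets, dimmer than 6.87, were called higher with density, at 1.17 and 0.68, and with Tead2-EnR one was called at 0.42 and the other was at 0.22, not called. The mean over the 3 gave 1.54 with density and 0.79 with Tead2-EnR, and -0.63 in high-density Tead2-VP16 against confluent control cells, all called.

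Sema3c, a secreted semaphorin that guides neural crest cells through neuropilins, rose with density in control cells. In Tead2-VP16 cells it was higher at complete confluency than at high density, which is another density step. It measured 9.79 and 9.74 in Tead2-EnR cells, 10.84 and 10.83 in Yap cells, 12.21 and 12.24 in completely confluent Tead2-VP16 cells, 10.46 and 10.38 in high-density Tead2-VP16 cells, 11.67 and 11.77 in confluent control cells and 9.76 and 9.77 in low-density control cells. Both completely confluent groups were higher than all others, and Tead2-EnR cells overlapped with low-density control. Confluent control cells were 3.87-fold above low-density control cells (1.95 ± 0.06, adjusted p = 2.38e-09), and completely confluent Tead2-VP16 cells were 3.5-fold above those at high density (1.81 ± 0.06, adjusted p = 1.57e-07). Against confluent control, Sema3c was at -1.30 ± 0.06 in Tead2-VP16 cells at high density (adjusted p = 4.71e-07) but at 0.51 ± 0.06 at complete confluency (adjusted p = 0.000496). With Tead2-EnR the difference was -0.00254 ± 0.06, not called. Yap cells were 0.42 ± 0.06 above high-density Tead2-VP16 cells (adjusted p = 0.00614), a call lost without either Yap array. The second Sema3c probe set, also above 6.87, was at 1.55 with density, called, and at -0.18 with Tead2-EnR, not called.

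Sema4c, a membrane-bound semaphorin that binds plexin B2, rose with density and with Tead2-EnR. It measured 7.44 and 7.69 in Tead2-EnR cells, 7.55 and 7.59 in Yap cells, 7.79 and 7.83 in completely confluent Tead2-VP16 cells, 7.45 and 7.58 in high-density Tead2-VP16 cells, 8.04 and 8.21 in confluent control cells and 6.48 and 6.49 in low-density control cells. Every other group lay above low-density control, and confluent control was the highest. It rose 3.12-fold with density (1.64 ± 0.09, adjusted p = 1.79e-07) and 2.12-fold with Tead2-EnR (1.08 ± 0.09, adjusted p = 9.65e-06). Against confluent control it was at -0.56 in Yap cells and at -0.61 in Tead2-VP16 cells at high density, both called. Promoter windows from RefSeq run from 250 bases before to 50 after a gene's start, 5′ to 3′ on the gene's strand. Of the 11 members plotted by array (called, at least 2-fold and above 6.87 in the higher group), 10 had a window in the table (Sema3b did not), and Sema4c alone of the 10 had one with an AP-1 motif (TGANTCA, both strands searched), 22 bases upstream of the start and in capitals (GRCm38.p6, chr1:36558332-36558631, minus strand). Its second window, at another annotated start, had none.

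Sema4c: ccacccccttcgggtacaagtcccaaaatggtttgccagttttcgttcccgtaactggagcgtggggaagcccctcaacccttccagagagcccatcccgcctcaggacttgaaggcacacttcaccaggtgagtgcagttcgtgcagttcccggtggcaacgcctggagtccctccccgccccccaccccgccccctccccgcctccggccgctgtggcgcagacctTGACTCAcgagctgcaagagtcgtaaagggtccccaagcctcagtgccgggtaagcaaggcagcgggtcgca

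The AP-1 motif was in 7.8% of all 32851 windows and in 3 of the 73 windows of the 57 members that had one. A match is a description of the letters and says nothing of binding.

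Sema3a, a secreted semaphorin that repels axons through neuropilin 1, fell. It measured 7.65 and 7.57 in Tead2-EnR cells, 7.93 and 7.90 in Yap cells, 7.95 and 7.91 in completely confluent Tead2-VP16 cells, 7.67 and 7.64 in high-density Tead2-VP16 cells, 7.89 and 7.88 in confluent control cells and 8.83 and 8.73 in low-density control cells. Low-density control was above every other group, and confluent control, Yap and completely confluent Tead2-VP16 cells lay close together. With Tead2-EnR it fell 2.24-fold (-1.16 ± 0.06, adjusted p = 3.29e-07) and with density 1.85-fold (-0.89 ± 0.06, adjusted p = 4.79e-07). Its other 2 probe sets also fell, to differences of -1.67 and -1.38 with Tead2-EnR and -1.56 and -1.07 with density. With Tead2-VP16 at complete confluency the difference was 0.04 and not called, while one of the other probe sets was called at 0.37.

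Of the remaining semaphorins, Sema3f (0.40) and Sema6c (0.25) were called higher with density, and Sema5a (-0.44) and Sema6b (-0.19) lower. None of these 4 was called with Tead2-EnR, and the Sema6c call was lost with centred arrays and in 2 of the 12 refits without 1 array (0.16 to 0.34). The Sema6b call was lost in 6 of the 12 refits without 1 array (-0.26 to -0.12), and over all probe sets of each gene the mean was 1.23 for Sema3f, called, and 0.11 for Sema6c and -0.12 for Sema5a, not called. Sema5a, a membrane semaphorin with thrombospondin repeats, was dim throughout. It measured 5.85 and 5.83 in Tead2-EnR cells, 4.92 and 4.87 in Yap cells, 6.05 and 6.01 in completely confluent Tead2-VP16 cells, 5.70 and 5.53 in high-density Tead2-VP16 cells, 5.52 and 5.11 in confluent control cells and 5.80 and 5.71 in low-density control cells. Yap cells were the lowest and completely confluent Tead2-VP16 cells the highest. Sema5a was higher with Tead2-VP16 at complete confluency (0.72 ± 0.11, adjusted p = 0.00414) and lower in Yap than in Tead2-VP16 cells at high density (-0.72 ± 0.11, adjusted p = 0.0138). Of its other 3 probe sets, 2 were called with Tead2-VP16, at 0.69 and 0.90, and 1 in Yap against Tead2-VP16 cells, at -1.09, with the others there at -0.08 and 0.22. The call in Yap against Tead2-VP16 cells was lost in 3 of the 12 refits without 1 array (-0.81 to -0.63).

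Both neuropilins, the receptors for class 3 semaphorins, rose with density. Nrp1, also a coreceptor for vascular endothelial growth factor, measured 9.92 and 9.85 in Tead2-EnR cells, 9.97 and 9.88 in Yap cells, 9.79 and 9.74 in completely confluent Tead2-VP16 cells, 10.21 and 10.31 in high-density Tead2-VP16 cells, 10.003 and 10.05 in confluent control cells and 8.95 and 8.92 in low-density control cells. Low-density control was below every other group. Nrp1 rose 2.13-fold with density (1.09 ± 0.06, adjusted p = 1.81e-07) and 1.93-fold with Tead2-EnR (0.95 ± 0.06, adjusted p = 1.72e-06), and it was 2.5-fold above low-density control in Tead2-VP16 cells at high density (1.32 ± 0.06, adjusted p = 8.01e-08). In Tead2-VP16 cells it was lower at complete confluency than at high density (-0.49 ± 0.06, adjusted p = 0.000394). Of its 3 other probe sets, the 2 above 6.87 were called with density, at 0.63 and 0.57, and with Tead2-EnR, at 0.67 and 0.67, and the dim one was not called in either. The mean over the 4 gave 0.59 with density, 0.58 with Tead2-EnR and 0.73 in high-density Tead2-VP16 against low-density control cells, all called. Nrp2 rose with density (0.56 ± 0.05, adjusted p = 5.32e-06) and with Tead2-EnR (0.23 ± 0.05, adjusted p = 0.00453), and the Tead2-EnR call was lost with centred arrays, at 0.11.

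Of the 9 plexins, which transmit semaphorin signals to small GTPases, 4 rose with density and 5 were not called. With Tead2-EnR 3 rose and 1 fell. The rises with density were in Plxnd1 (0.77), Plxna3 (0.63), Plxnb2 (0.51) and Plxna1 (0.38). Plxna2, a receptor for class 3 and class 6 semaphorins, was the plexin that rose most with Tead2-EnR. It measured 7.56 and 7.51 in Tead2-EnR cells, 6.79 and 6.99 in Yap cells, 6.46 and 6.28 in completely confluent Tead2-VP16 cells, 6.93 and 6.79 in high-density Tead2-VP16 cells, 6.50 and 6.66 in confluent control cells and 6.12 and 6.51 in low-density control cells. Tead2-EnR arrays were above all others, and confluent and low-density control overlapped. The mean of Plxna2 over the 12 arrays was 6.76, so it is plotted by array only through its level in Tead2-EnR cells. A refit of genes above 6.87 left it out. The rise was 2.34-fold (1.22 ± 0.13, adjusted p = 4.11e-05), and its other 3 probe sets were called as well, at 1.33, 1.72 and 1.81. With density the difference was 0.27 and not called, although those 3 dimmer probe sets were called at 0.65, 0.93 and 0.83. Plxna1 was the plexin that fell with Tead2-EnR (-0.26 ± 0.08, adjusted p = 0.0276), a call lost in 4 of the 12 refits without 1 array (-0.30 to -0.22).

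Plxnd1, a plexin best known from blood vessel patterning, measured 8.29 and 8.27 in Tead2-EnR cells, 7.81 and 7.91 in Yap cells, 7.92 and 8.02 in completely confluent Tead2-VP16 cells, 8.13 and 8.11 in high-density Tead2-VP16 cells, 8.02 and 7.98 in confluent control cells and 7.15 and 7.31 in low-density control cells. Tead2-EnR arrays were the highest and low-density control arrays the lowest. It rose 2.07-fold with Tead2-EnR (1.05 ± 0.07, adjusted p = 2.12e-06) and 1.71-fold with density (0.77 ± 0.07, adjusted p = 6.02e-06). Its window (chr6:115994956-115995255, minus strand) is shown because, of the 10 members plotted by array that had a window, it and that of Epha2 held the core of the motif bound by Tead factors (GGAATG, or CATTCC on the other strand). The match is in capitals, 173 bases upstream of the start. That core was in 14.7% of all windows and in 9 of the 73 windows of members.

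Plxnd1: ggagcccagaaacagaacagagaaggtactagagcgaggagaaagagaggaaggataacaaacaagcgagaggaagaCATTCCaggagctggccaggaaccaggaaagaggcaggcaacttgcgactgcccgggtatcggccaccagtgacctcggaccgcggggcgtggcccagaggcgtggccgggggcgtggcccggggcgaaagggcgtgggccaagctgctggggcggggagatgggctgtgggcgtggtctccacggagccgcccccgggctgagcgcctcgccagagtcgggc

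Slit2, a secreted protein that repels axons and other migrating cells through Robo receptors, was highest in low-density control cells. It measured 7.24 and 7.19 in Tead2-EnR cells, 7.80 and 7.81 in Yap cells, 7.22 and 7.09 in completely confluent Tead2-VP16 cells, 7.29 and 7.39 in high-density Tead2-VP16 cells, 7.36 and 7.49 in confluent control cells and 9.22 and 9.17 in low-density control cells. The low-density control arrays were more than 1 unit above all others, and Yap cells came next. Slit2 fell 3.96-fold with Tead2-EnR (-1.98 ± 0.07, adjusted p = 4.3e-08) and 3.41-fold with density (-1.77 ± 0.07, adjusted p = 1.69e-08). It was also below low-density control in Yap cells (-1.39 ± 0.07, adjusted p = 1.6e-07) and in Tead2-VP16 cells at high density (-1.86 ± 0.07, adjusted p = 2.06e-08). Yap cells were higher than Tead2-VP16 cells at high density (0.47 ± 0.07, adjusted p = 0.00991) and than confluent control (0.38 ± 0.07, adjusted p = 0.00273). With Tead2-VP16 at complete confluency Slit2 was called at -0.27, a call lost with centred arrays and in 7 of the 12 refits without 1 array (-0.34 to -0.20). The Yap call against high-density Tead2-VP16 cells was lost in 3 of the 12 refits without 1 array (0.42 to 0.51). Its other 2 probe sets were far dimmer and were called at -0.54 and -0.50 with density, and with Tead2-EnR at -0.37, called, and -0.21, not called. The mean over the 3 gave -0.86 with Tead2-EnR and -0.94 with density, both called. In Yap against low-density control cells neither other probe set was called (-0.22 and -0.36), and in high-density Tead2-VP16 against low-density control cells both were (-0.46 and -0.61). The mean over the 3 gave -0.66 and -0.98 there, both called. Its window (chr5:47982905-47983204, plus strand) held neither motif. It is shown because Slit2 had the largest change with Tead2-EnR of the 66 members on the probe set chosen for each gene.

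Slit2: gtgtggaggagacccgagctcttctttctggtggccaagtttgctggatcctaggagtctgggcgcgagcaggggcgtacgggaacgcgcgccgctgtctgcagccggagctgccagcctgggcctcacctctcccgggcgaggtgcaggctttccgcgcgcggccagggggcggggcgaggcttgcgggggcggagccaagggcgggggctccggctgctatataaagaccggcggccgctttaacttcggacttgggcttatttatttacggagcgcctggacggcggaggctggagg

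Slit1 and Slit3 were dim and not called in any of the 10 comparisons. Of the 4 Robo receptors Robo3 was called, at 0.36 with density (adjusted p = 0.0196; lost with centred arrays) and at -0.47 in high-density Tead2-VP16 cells against confluent control. Each call was lost in 2 of the 12 refits without 1 array, and over all Robo3 probe sets the mean was -0.023 and -0.10, neither called. Robo3 was also called at 0.51 in Tead2-VP16 cells at complete confluency against high density, kept with centred arrays. In Yap against low-density control cells it was called at 0.37, lost with centred arrays. Among netrins, Ntn3 was called higher with density (0.59) and with Tead2-EnR (0.61) on a dim probe set. That probe set measured 5.28 and 5.19 in Tead2-EnR cells, 5.19 and 5.24 in confluent control cells and 4.64 and 4.60 in low-density control cells. Unc5b, a netrin receptor that also acts in vessels, measured 8.13 and 7.97 in Tead2-EnR cells, 7.73 and 7.69 in Yap cells, 7.50 and 7.34 in completely confluent Tead2-VP16 cells, 7.94 and 7.97 in high-density Tead2-VP16 cells, 7.47 and 7.33 in confluent control cells and 7.94 and 7.997 in low-density control cells. Both confluent groups were below low-density control. Unc5b fell with density (-0.57 ± 0.08, adjusted p = 0.000136) and was lower in Tead2-VP16 cells at complete confluency than at high density (-0.54 ± 0.08, adjusted p = 0.00102). Against confluent control it was at 0.31 in Yap and at 0.56 in high-density Tead2-VP16 cells, both called, the Yap call being lost in 3 of the 12 refits without 1 array (0.24 to 0.38). With Tead2-EnR it was at 0.08, not called.

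Of the 5 ephrins of class A, which are anchored to the membrane by a lipid, 3 rose with density and 3 with Tead2-EnR, and the others were not called. Efna4 changed most. It measured 7.80 and 7.91 in Tead2-EnR cells, 7.49 and 7.44 in Yap cells, 7.83 and 7.68 in completely confluent Tead2-VP16 cells, 7.37 and 7.35 in high-density Tead2-VP16 cells, 8.31 and 8.27 in confluent control cells and 7.07 and 7.16 in low-density control cells. Confluent control was above all other groups and low-density control below them. Efna4 rose 2.25-fold with density (1.17 ± 0.07, adjusted p = 2.36e-07) and 1.67-fold with Tead2-EnR (0.74 ± 0.07, adjusted p = 1.71e-05). It was below confluent control in Tead2-VP16 cells at complete confluency (-0.53 ± 0.07, adjusted p = 0.00115) and at high density (-0.93 ± 0.07, adjusted p = 1.06e-05), and in Yap cells (-0.82 ± 0.07, adjusted p = 2.64e-05). Efna1 rose with density (0.62) and with Tead2-EnR (0.41), Efna3 rose with density (0.36), and Efna5 rose with Tead2-EnR (0.60).

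Of the transmembrane class B ephrins, Efnb2, which marks arterial endothelium, was called lower with density (-1.29 ± 0.25, adjusted p = 0.00145) and with Tead2-EnR (-0.76 ± 0.25, adjusted p = 0.0367) on a dim probe set. It measured 6.02 and 5.96 in Tead2-EnR cells, 5.52 and 5.51 in Yap cells, 5.13 and 5.30 in completely confluent Tead2-VP16 cells, 5.47 and 5.52 in high-density Tead2-VP16 cells, 5.39 and 5.52 in confluent control cells and 6.23 and 7.26 in low-density control cells. The low-density control arrays differed by about 1 unit, and both were above every other array. Without the second of them the difference with density was -0.77 (adjusted p = 0.000105) and that with Tead2-EnR -0.24 (adjusted p = 0.0784), and the Tead2-EnR call was lost in 11 of the 12 refits without 1 array (-1.27 to -0.24). Of its other 3 probe sets, all below 6.87, 2 were called with density, at -2.41 and -0.89, and with Tead2-EnR, at -1.34 and -0.50. Its window also held the Tead core, 105 bases upstream of the start. Efnb1 was called at 0.28 with density, a call lost with centred arrays and in 2 of the 12 refits without 1 array (0.19 to 0.38).

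Epha2, a class A Eph receptor that is often high in tumours, was the member that fell most with density. It measured 8.16 and 8.30 in Tead2-EnR cells, 7.82 and 7.80 in Yap cells, 7.64 and 7.64 in completely confluent Tead2-VP16 cells, 7.89 and 7.96 in high-density Tead2-VP16 cells, 7.16 and 6.81 in confluent control cells and 9.57 and 9.30 in low-density control cells. Low-density control was the highest and confluent control the lowest, with the other 4 groups between them and Tead2-EnR above Yap and Tead2-VP16. Epha2 fell 5.45-fold with density (-2.45 ± 0.12, adjusted p = 6.43e-08) and 2.31-fold with Tead2-EnR (-1.21 ± 0.12, adjusted p = 2.53e-05). Relative to confluent control it was higher with Tead2-VP16 at complete confluency (0.65 ± 0.12, adjusted p = 0.0076), with Yap (0.82 ± 0.12, adjusted p = 0.000679) and with Tead2-VP16 at high density (0.94 ± 0.12, adjusted p = 0.000286). Without the second confluent control array the first of these was no longer called (0.48, adjusted p = 0.05002). Yap and Tead2-VP16 at high density differed by -0.12 ± 0.12, not called. Its window (chr4:141300971-141301270, plus strand) held the Tead core 2 times, in capitals, 243 and 56 bases upstream of the start.

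Epha2: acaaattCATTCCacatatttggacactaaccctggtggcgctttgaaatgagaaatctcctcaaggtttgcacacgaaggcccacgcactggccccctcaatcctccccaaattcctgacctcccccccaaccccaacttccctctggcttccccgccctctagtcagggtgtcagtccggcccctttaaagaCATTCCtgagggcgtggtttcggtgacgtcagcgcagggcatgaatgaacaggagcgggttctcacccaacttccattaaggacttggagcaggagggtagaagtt

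The class B Eph receptors Ephb3 and Ephb4, which bind class B ephrins, rose with density and with Tead2-EnR. Ephb3 measured 8.60 and 8.62 in Tead2-EnR cells, 8.81 and 8.78 in Yap cells, 9.04 and 9.03 in completely confluent Tead2-VP16 cells, 9.14 and 9.03 in high-density Tead2-VP16 cells, 8.76 and 8.76 in confluent control cells and 7.92 and 8.01 in low-density control cells. Low-density control was the lowest, and both Tead2-VP16 groups were the highest. Ephb3 was 2.17-fold above low-density control in Tead2-VP16 cells at high density (1.12 ± 0.06, adjusted p = 1.64e-07), and it was at 0.79 with density and 0.65 with Tead2-EnR, both called. It was also called higher with Tead2-VP16 at complete confluency (0.27, adjusted p = 0.0165) and lower in Yap than in Tead2-VP16 cells at high density (-0.29, adjusted p = 0.0321). The first of these calls was lost in 4 of the 12 refits without 1 array (0.27 to 0.28) and the second in 10 of the 12 refits without 1 array (-0.35 to -0.24). Ephb4 rose with density (0.87) and with Tead2-EnR (0.42), and was below confluent control in Yap cells (-0.72, adjusted p = 6.99e-05).

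**Figure D3:**
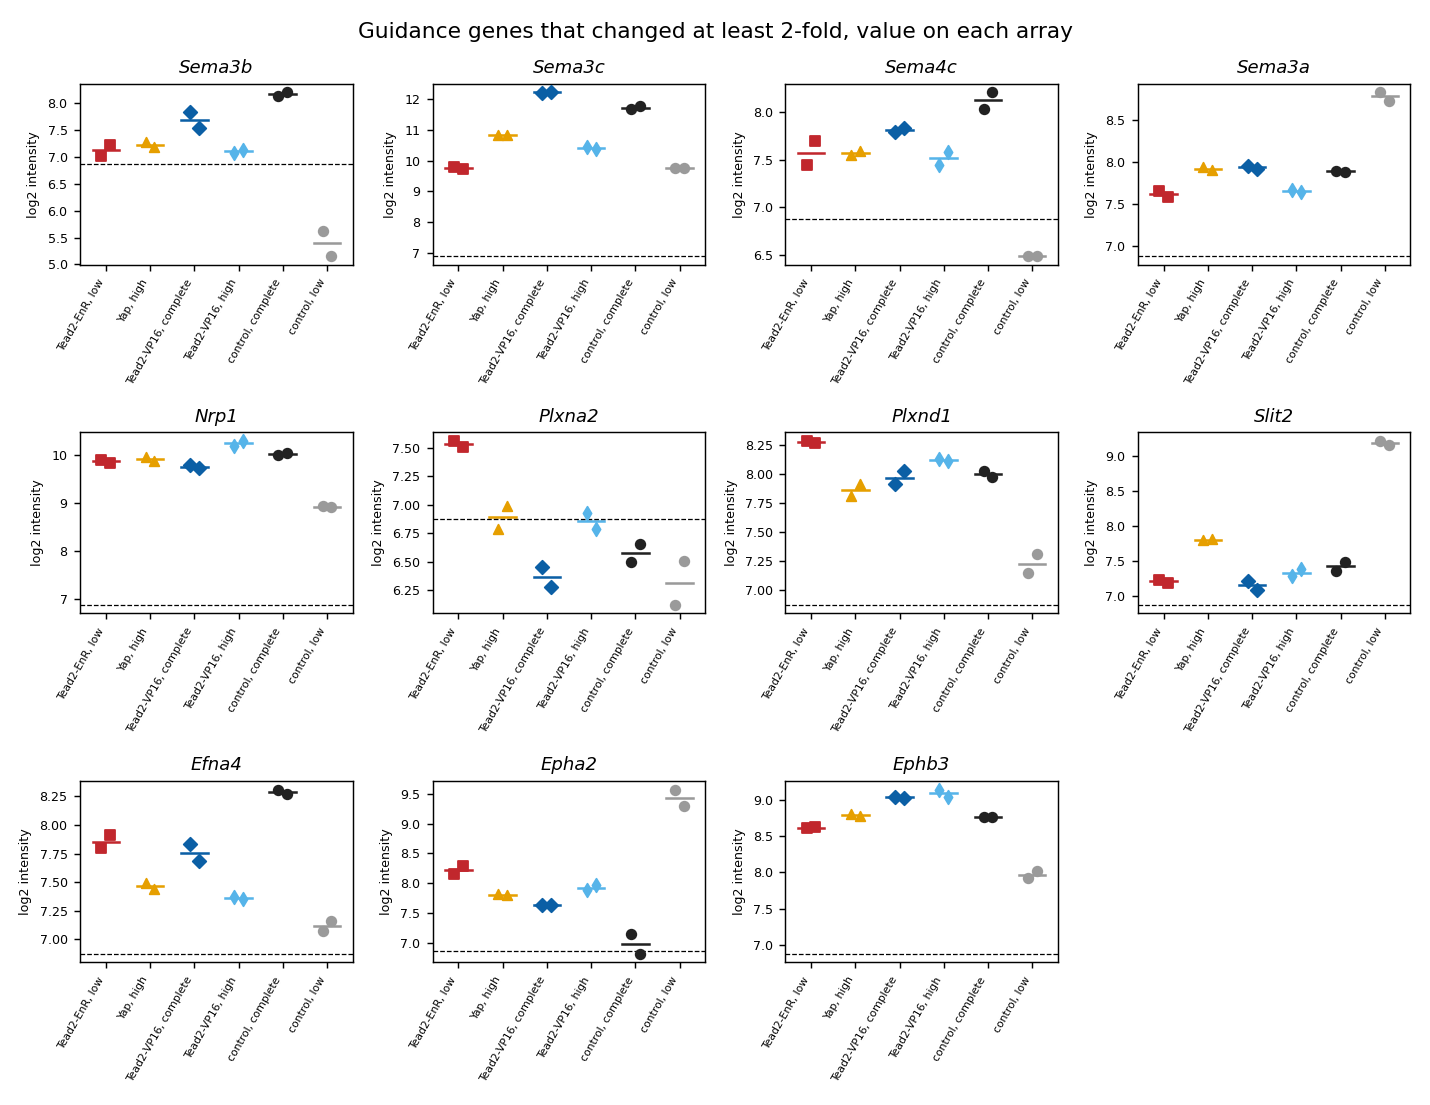
Log2 intensity (y axis) on each array (points, 2 per group, with the mean as a line) by group (x axis) for 11 guidance genes called with at least 2-fold change; the dashed line is 6.87 and each panel has its own y axis. Slit2, Sema3a and Epha2 are highest in low-density control cells, Sema3b, Sema4c and Efna4 in confluent control cells, and Plxna2 in Tead2-EnR cells. Plxna2 had a mean of 6.76 over all arrays and is included only through its level in Tead2-EnR cells.

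The effects of the fusions were compared as a difference of differences whose parts share no array, Tead2-VP16 over control at complete confluency less Tead2-EnR over control at low density. Of the 66 genes, 5 differed upward and 14 downward, against 15% and 17.7% of all genes, 9 of them by at least 2-fold (5.13%), and with centred arrays 11 and 12 did (26.6% and 11.6% of all genes). Epha2 was called in opposite directions, at 0.65 with Tead2-VP16 and -1.21 with Tead2-EnR (difference 1.86 ± 0.17, adjusted p = 2.39e-05). So were Efna4, at -0.53 and 0.74 (difference -1.27 ± 0.10, adjusted p = 8.42e-06), and Nrp1, at -0.26 and 0.95 (difference -1.21 ± 0.09, adjusted p = 5.85e-06). The call with Tead2-VP16 alone was lost for Nrp1 with centred arrays and in 4 of the 12 refits without 1 array (-0.29 to -0.23), and for Epha2 without the second confluent control array. Slit2 was lower in both, at -0.27 and -1.98 (difference 1.71 ± 0.10, adjusted p = 1.53e-06, or 0.67 averaged over its probe sets). The parts were measured at different densities, so fusion and density cannot be told apart in the difference.

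**Figure D4:**
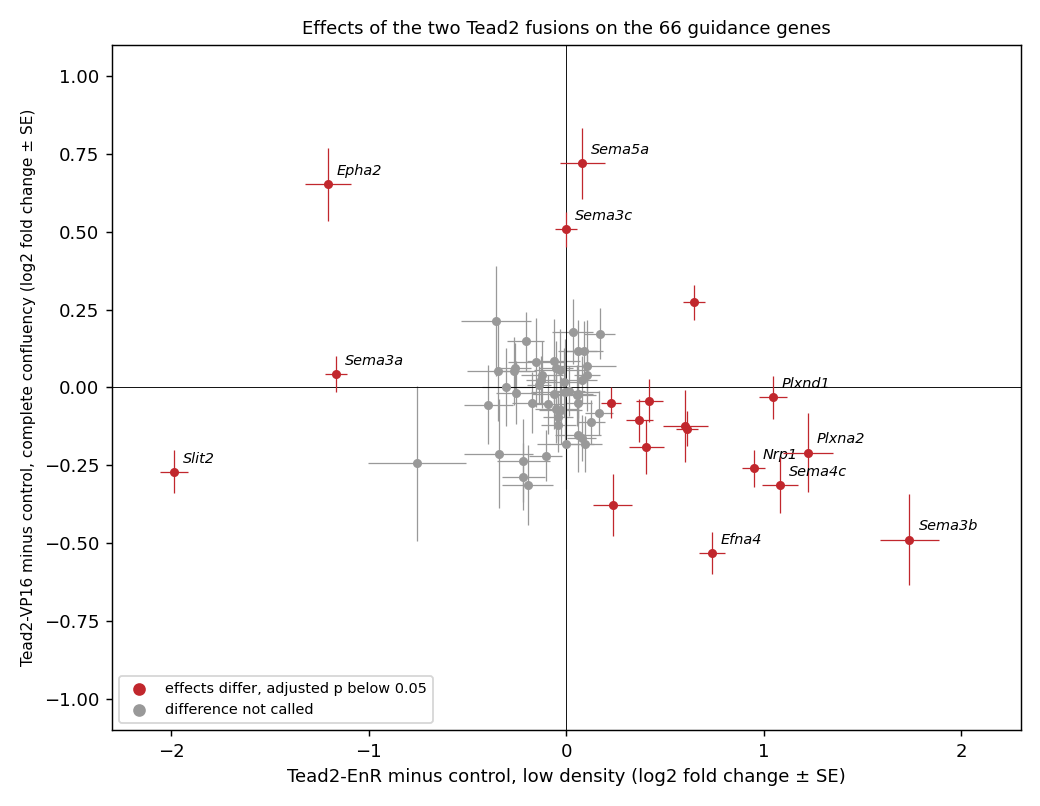
Log2 fold change ± SE of each of the 66 genes with Tead2-EnR at low density (x axis) and with Tead2-VP16 at complete confluency (y axis); red points differ between the axes at an adjusted p below 0.05, and the larger differences are named. Epha2 lies at upper left (-1.21, 0.65), Efna4 and Sema3b at lower right, and Slit2 at lower left (-1.98, -0.27).

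Of 60 other guidance genes (further ligands, coreceptors and cytoskeletal effectors of these pathways), 58 were measured. With density 29 were higher and 14 lower (26.1% and 22.8% of all genes), with a median of 0.17 against -0.0114 for all genes. Of the 58, 42 were above the level of the median gene in low-density control cells and 45 in confluent control cells. All genes were not matched to this list in level, so their percentages and median are not a like reference for it. With density the array medians shifted by 0.13, and values from centred arrays are not given for this list. Large changes were in Trio, a guanine nucleotide exchange factor (2.08, adjusted p = 5.33e-09), Rnd3, an atypical small GTPase (2.02, adjusted p = 1.85e-09), and Srgap3, a GTPase-activating protein of the Slit-Robo pathway (1.97, adjusted p = 1.35e-07). With Tead2-EnR 20 were higher and 11 lower (20.3% and 18.1%), with Srgap3 at 1.90, Rnd3 at 1.26 and Dpysl3, a cytosolic phosphoprotein of growth cones, at -1.26. With Tead2-VP16 at complete confluency 7 were higher and 6 lower (5.06% and 4.92%), with Rgma, a membrane-anchored ligand of neogenin, at -0.63. In Yap against confluent control cells 8 were higher and 15 lower (11.7% and 14.5%), among them Trio (-1.25) and the membrane proteins Flrt3 (-1.04) and Flrt2 (0.95), which bind Unc5 receptors.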

How the data were processed

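The submitters' processing notes name RMA, a method that corrects background, normalizes between arrays and summarises probes; its version is not given in the sources used here. The deposited values are probe set intensities on a linear scale; log2 was taken before any test, and no filter was applied. Of 45101 probe sets, 34945 had exactly 1 gene symbol, which gave 18193 genes; the 66 members had 147 probe sets, and 44 members had more than 1. All 12 arrays were fitted with 1 mean per group in limma 3.58.1 (lmFit, contrasts.fit, eBayes; R 4.3.3), with 6 residual degrees of freedom, in 10 comparisons, two-sided. The test was checked on simulated data, and the outcome of that check is not given here. Members were named with full values where called, changed at least 2-fold, without overlap between arrays and above 6.87 in the higher group; Sema5a, Efnb2 and others outside this rule were described after their values were seen. Members and lists were chosen with earlier results of these data known. Promoter windows and gene names came from RefSeq tables (GRCm38.p6): all 66 members matched by Entrez identifier. Alternatives were a filter on level, averaging over a gene's probe sets, repeated quantile normalization, centring on medians, log2 of the value plus 50, a variance trend with a robust prior, the replicate number as a block, and each array left out. Groups of 2 arrays limit the precision.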

Additional observations from a re-analysis of the deposited data

Results flagged for a closer look

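The effect of Tead2-VP16 at complete confluency minus that of Tead2-EnR at low density was called as different from 0 by limma for 19 guidance genes, each of which is given here for a closer look with the size of that difference (log2). It was above 0 in Epha2 (1.86), Slit2 (1.71), Sema3a (1.21), Sema5a (0.64), Sema3c (0.51). It was below 0 in Sema3b (-2.23), Plxna2 (-1.43), Sema4c (-1.4), Efna4 (-1.27), Nrp1 (-1.21), Plxnd1 (-1.08), Ntn3 (-0.75), Efna5 (-0.73), Epha4 (-0.61), Efna1 (-0.6), Plxnb2 (-0.48), Ephb4 (-0.46), Ephb3 (-0.37), Nrp2 (-0.27). The calls of Ephb3 and Nrp2 were lost with centred arrays. Epha4 (5.41), Ntn3 (5.14), Sema5a (5.57) and Plxna2 (6.76) had a mean level below 6.87. Epha4 was called at -0.38 with Tead2-VP16, a call lost with centred arrays, and was at 0.24 with Tead2-EnR, not called. Groups of 2 arrays were too small to test for an outlying array.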

How the results depend on the processing

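The 29 changes of 11 genes that were called, at least 2-fold, without overlap between arrays and above 6.87 in the higher group did not include Efnb2. They were picked from these same data, so recomputing them is no independent check. Their direction and call were kept in all 550 recomputed values, over 7 other settings and 12 arrays left out in turn. Of all 167 called changes of members, 114 kept both in every refit, 47 lost the call without some single array, and 1 reversed (Robo3 with density, at -0.023 averaged over probe sets). Averaging brought Slit2 to -0.86 with Tead2-EnR, -0.94 with density, -0.66 in Yap and -0.98 in high-density Tead2-VP16 cells against low-density control. It brought Sema3b to 1.54 with density, 0.79 with Tead2-EnR, 0.85 and 0.92 in Yap and high-density Tead2-VP16 cells against low-density control and -0.63 in the second against confluent control. It brought Nrp1 to 0.59 with density and 0.73 in high-density Tead2-VP16 cells against low-density control, and the difference between the fusions' effects to 0.67 for Slit2 and -1.06 for Sema3b. Of 190 recomputed counts of called members, 178 stayed within 1.5 times. The 5 called in Yap against Tead2-VP16 at high density became 10 of the 25 members above the median level (10.8% of all such genes), 9 with log2 of the value plus 50 (4.98%) and 10 with a variance trend (5.82%), and 0 to 6 with 1 array left out. The 8 called in Tead2-VP16 against control at complete confluency became 5 with centred arrays (11.1% of all genes) and 3 to 8 with 1 array left out. The replicate number as a block gave 8 calls there and 26 with density, against 27 without it, and the block moved no count by over 1.5 times. Deviations of same-numbered arrays correlated between -0.061 and 0.10 over 15 pairs of groups. Spike-in control probes read higher on the second array than on the first in every group, from 7.36 and 7.38 in Tead2-EnR cells to 7.34 and 7.59 in completely confluent Tead2-VP16 cells. Their group mean was lowest in low-density control cells (7.14). It was 7.21 and 7.47 in high-density and completely confluent Tead2-VP16 cells, 7.30 in Yap, 7.37 in Tead2-EnR and 7.40 in confluent control cells. The part of this difference in the results was not tested. Whether same-numbered arrays shared a handling step was not tested. Causes were not tested. No signal over background was available for these arrays.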
